A study of Homo sapiens with 9 samples.

Results

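The interferon-induced genes described here are 45 genes taken by symbol: 2 subunits of the type I interferon receptor, 4 transcription factors of the pathway and 39 genes known for their induction by interferon. Each symbol matched 1 of 58233 gene IDs, and all 45 were among the 17880 genes that passed the filter on low counts. The rule for choosing them uses no measured value, but they were chosen with earlier results of these data known. Polyadenylated RNA was sequenced from TC32, an established cell line derived from Ewing sarcoma, a tumour of bone and soft tissue, grown in RPMI 1640 with fetal bovine serum. The 9 libraries form 3 groups of 3. Wnt3a+SB-505124 cells received the ligand Wnt3a for 28 h and, over the last 24 h, SB-505124, an inhibitor of the TGF-beta type I receptor kinases. Wnt3a cells received the ligand for 28 h with DMSO in place of the inhibitor, and Vehicle cells received PBS and then DMSO. No group received SB-505124 without Wnt3a, the labels name no interferon treatment, and they do not say whether replicates were separate cultures. The p-values therefore reflect only how these libraries vary, which may be technical.

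Type I interferons bind a receptor made of IFNAR1 and IFNAR2, whose JAK kinases phosphorylate STAT proteins, STAT2 among them. STAT2 and IRF9 are parts of the complex ISGF3, which binds a DNA motif called ISRE and switches on a programme of antiviral genes. The same genes can be held at a low tonic level without infection, and IRF1, IRF7 and nucleic acid sensors can raise part of the programme.

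Library totals ran between 28844348 and 42976799 counts. The Wnt3a+SB-505124 libraries had fewer genes with a count (23279 to 23335, against 25201 to 26876 in the other libraries) and lower TMM factors, the scaling factors edgeR sets per library (0.876 to 0.914, against 1.02 to 1.1). Wnt3a+SB-505124 replicate 1 stood apart from its group on the second principal component of all genes, at 66.9 against -26.9 and -24.5 for replicates 2 and 3. On that axis Wnt3a replicate 3 lay at -24.9, against 30.7 and 24.2 for replicates 1 and 2. Vehicle replicate 2 lay at 8.2, against -22.6 and -31 for replicates 1 and 3. AXIN2, a feedback target of Wnt signalling, rose in Wnt3a over Vehicle (log2 fold change 2.61; edgeR adjusted p = 0.000119), and COL1A1, a collagen gene induced by TGF-beta, fell in Wnt3a+SB-505124 against Wnt3a (log2 fold change -5.07, edgeR adjusted p = 2.18e-05). Of the other TGF-beta targets reported here, TGFBI fell (log2 fold change -1.62, edgeR adjusted p = 0.000112) and SMAD7 did not pass (log2 fold change -0.27, edgeR adjusted p = 0.157). All 10 Ewing sarcoma markers checked passed the low-count filter, and 5 of them fell in Wnt3a+SB-505124 against Wnt3a, among them EWSR1 (log2 fold change -0.56, edgeR adjusted p = 0.000324). In that comparison 50.4% of all genes passed an adjusted p of 0.05, and 25.9% of all genes were lower.

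Of the 45 genes, 36 matched a RefSeq promoter window (GRCh38.p14), with 49 windows in all because 11 of them have several starts. The 250 bases upstream of the start were searched on both strands for the ISRE, written GAAANNGAAA (TTTCNNTTTC on the other strand; overlapping matches were counted). It was found for 20 of the 36 genes (55.6%), against 1014 of 27305 genes (3.71%) in the whole table. Among genes that rose in Wnt3a+SB-505124 against Wnt3a it was found for 8 of 14, among those that fell for 1 of 3, and among those that did not pass for 11 of 19. The motif GAS, TTCNNNGAA, which reads alike on both strands, was found for 10 of the 36 (27.8%), against 8.09% of all genes. Windows for IFNAR2, IRF7, DHX58, IFIT2, IFITM2, OAS2, OASL, MX2 and USP18 were not used here. The stretches printed here are the ISRE-bearing parts of 4 promoters: the 3 genes with an ISRE whose rises were largest, and IFIT5, the neighbour of IFIT1 and IFIT3 that fell. They are chr10:89392477-89392559 on the plus strand for IFIT1, chr2:162318685-162318873 on the minus strand for IFIH1, chr10:89327811-89327914 on the plus strand for IFIT3 and chr10:89414493-89414567 on the plus strand for IFIT5. Each is written 5′ to 3′ with ISRE matches in capitals.
IFIT1: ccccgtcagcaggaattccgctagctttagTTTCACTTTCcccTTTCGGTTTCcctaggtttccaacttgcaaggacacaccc
IFIH1: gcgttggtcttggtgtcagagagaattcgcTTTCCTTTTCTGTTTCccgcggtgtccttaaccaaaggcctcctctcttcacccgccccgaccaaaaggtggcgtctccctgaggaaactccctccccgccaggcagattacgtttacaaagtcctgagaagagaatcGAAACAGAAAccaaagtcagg
IFIT3: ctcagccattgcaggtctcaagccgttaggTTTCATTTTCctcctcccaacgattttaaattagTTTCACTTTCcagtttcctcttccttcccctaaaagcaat
IFIT5: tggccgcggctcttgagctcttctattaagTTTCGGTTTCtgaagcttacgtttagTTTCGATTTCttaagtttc
The IFIT1 stretch holds 2 matches, beginning 116 and 103 bases upstream of the start, and the IFIT3 stretch holds 2, at 156 and 122 bases. A second start of IFIT3, not printed here, also has 2 matches, at 94 and 51 bases. IFIT5 has 2 matches as well, nearer its start, at 45 and 19 bases. IFIH1 has 3, at 159 and 153 bases, which overlap, and at 21 bases. Pairs of matches were thus present at IFIT1 and IFIT3, which rose in Wnt3a+SB-505124, and at IFIT5, which fell. A match describes letters in a window and is no measure of binding.

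The comparison of Wnt3a+SB-505124 with Wnt3a asks what adding SB-505124 did in cells already given Wnt3a. IRF9, the DNA-binding part of ISGF3, rose about as much as the RNA-binding genes IFIT1 and IFIT3, the RNA sensor IFIH1 and the transcription factor IRF7, all by 1.69 to 2.16 on the log2 scale. Of the 45 genes, 17 rose, 4 fell and 24 did not pass edgeR's quasi-likelihood test at an adjusted p of 0.05. Among all 17880 genes the share called was 50.4%, with 24.5% higher and 25.9% lower; among the 45 it was 46.7%, with 37.8% higher and 8.89% lower. The number of calls was thus near that of all genes, and the split between directions differed from it without a test of that difference. The median log2 fold change was 0.45 over the 45 genes and -0.06 over all genes, and 35 of the 45 values lay above 0. With scaling by library totals alone, 11 rose and 5 fell, the median of the 45 was 0.2 and that of all genes -0.31, with 2828 genes higher and 6425 lower. The 4 lower genes became 2 with an effective length offset, with limma-trend on log2(TPM + 1) or without Wnt3a+SB-505124 replicate 2. Over all genes these settings gave 4062, 5549 and 3856 lower in turn. That limma-trend fit tested 40 of the 45, XAF1 not among them, and gave a median of 0.16 over those. Over all genes that limma-trend tested the median was -0.25. In all 19 alternative settings at that threshold the same 12 genes kept their calls: IRF9, IRF7, IFIH1, IFIT1, IFIT3, IFITM1, ISG15, USP18, TRIM21 and SP110, higher, and IFIT5 and ADAR, lower. In bulk RNA, fewer cells that express a gene and less RNA per cell cannot be told apart.

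**Figure D1:**
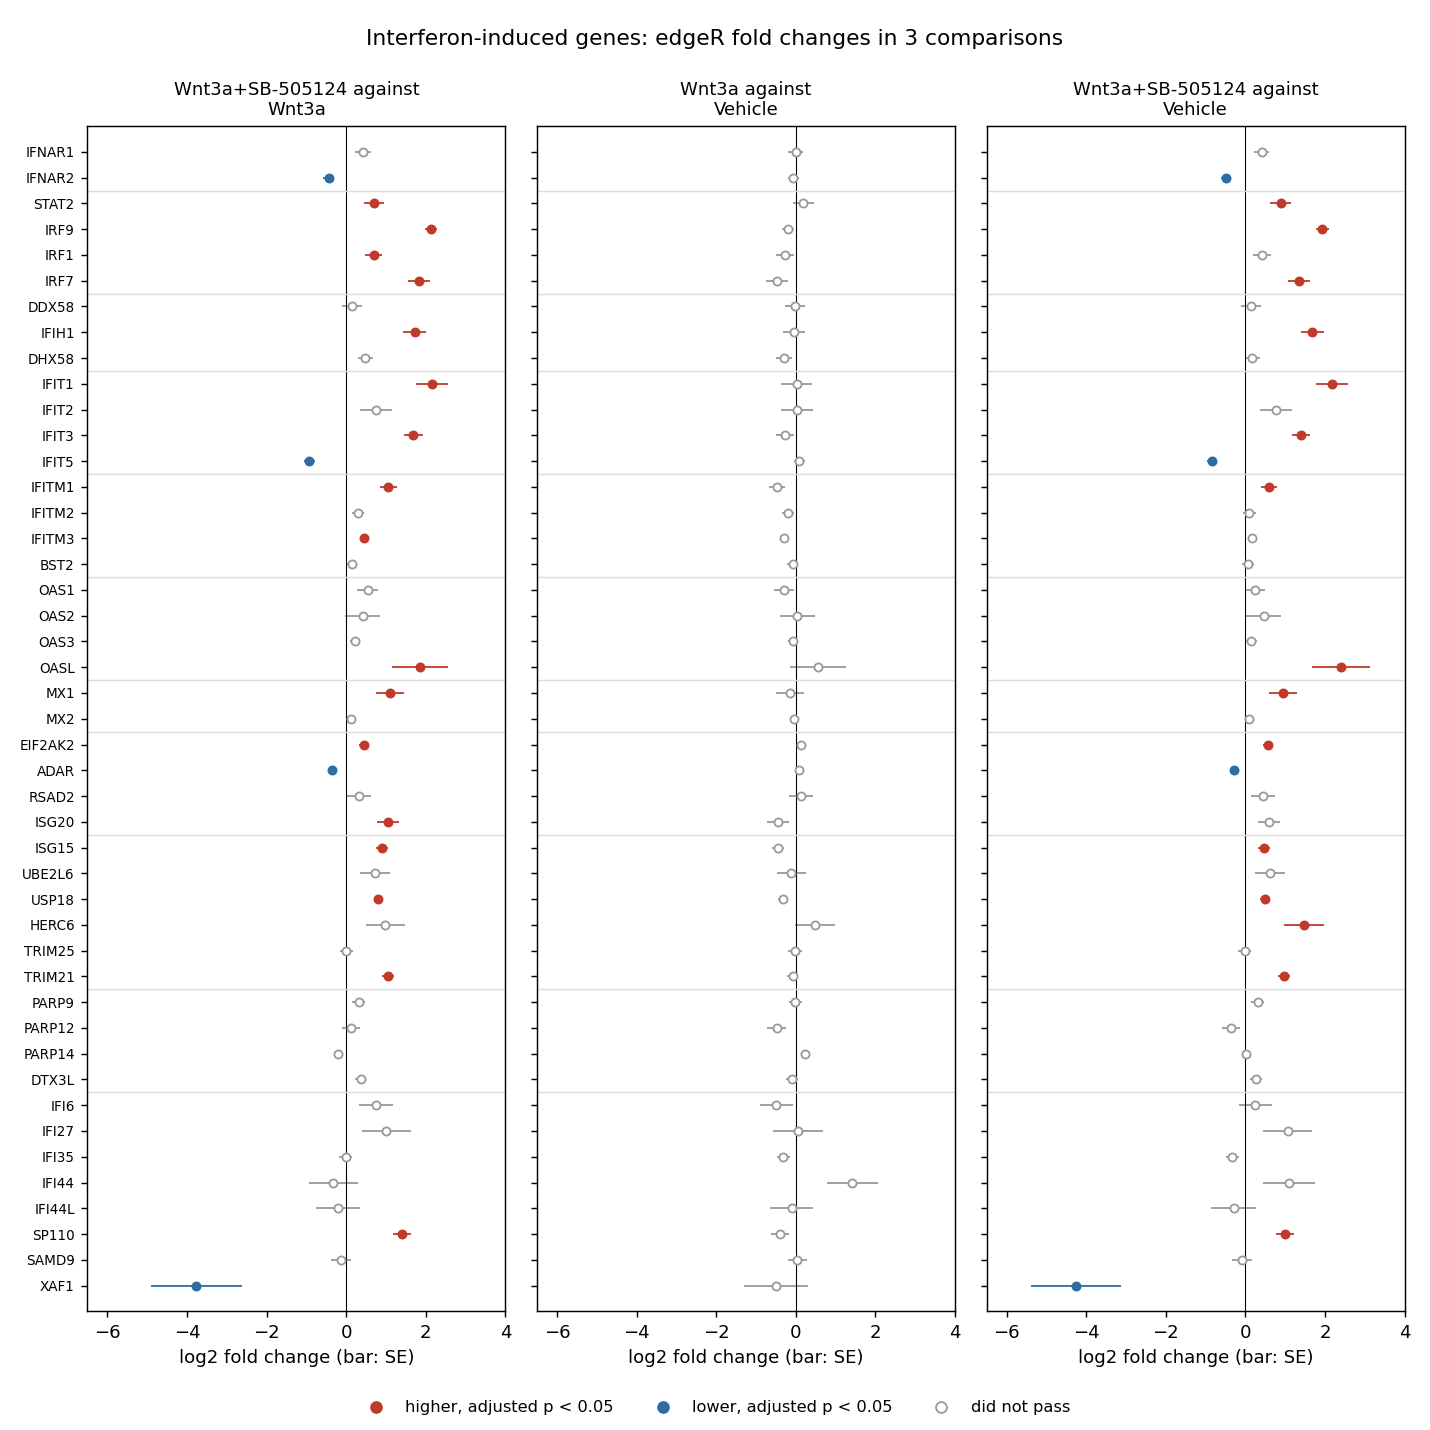
Log2 fold change (x axis) of each of the 45 genes (rows, grouped by role) in 3 comparisons, with the SE from edgeR as a bar; filled red points were higher and filled blue points lower at an adjusted p under 0.05, and open points did not pass. In Wnt3a+SB-505124 against Wnt3a 17 points are red and 4 blue, in Wnt3a against Vehicle none is filled, and in Wnt3a+SB-505124 against Vehicle 15 are red and 4 blue.

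The receptor subunits did not move together. Levels per library are given as CPM (counts per 1000000, scaled with TMM) for replicates 1, 2 and 3 in turn. IFNAR1 had 43, 62.5 and 57 CPM with Wnt3a+SB-505124, 38.3, 34.8 and 48.7 CPM with Wnt3a and 45.1, 31.2 and 46 CPM with Vehicle. The Wnt3a+SB-505124 and Wnt3a libraries overlapped, and the log2 fold change was 0.42 against Wnt3a (SE 0.193, edgeR adjusted p = 0.0972), which did not pass; it passed without Wnt3a+SB-505124 replicate 1 or Wnt3a replicate 3 (log2 fold change 0.56 to 0.57, edgeR adjusted p of 0.0318 to 0.0441). IFNAR2 had 12.9, 10.6 and 10.8 CPM with Wnt3a+SB-505124, 15.4, 14 and 16.9 CPM with Wnt3a and 17.1, 14.4 and 16.7 CPM with Vehicle. Every Wnt3a+SB-505124 library lay below every other library, and IFNAR2 fell, with a log2 fold change of -0.44 against Wnt3a (SE 0.137, edgeR adjusted p = 0.0228) and -0.49 against Vehicle (SE 0.137, edgeR adjusted p = 0.0128). Against Wnt3a the call was lost without Wnt3a+SB-505124 replicates 2 or 3 or Wnt3a replicates 1 or 3 or with an effective length offset or limma-trend on log2(TPM + 1) (log2 fold change -0.47 to -0.19, edgeR or limma adjusted p of 0.0562 to 0.47), and against Vehicle it was lost without Wnt3a+SB-505124 replicate 2 or Vehicle replicate 3 or with an effective length offset or limma-trend on log2(TPM + 1) (log2 fold change -0.46 to -0.07, edgeR or limma adjusted p of 0.0504 to 0.792). With library totals alone IFNAR2 gave -0.68 against Wnt3a. IFNAR2 overlaps AP000295.1 on the same strand, which had 0 to 27 counts per library.

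All 4 transcription factors rose in Wnt3a+SB-505124 against Wnt3a, IRF9 and IRF7 more than STAT2 and IRF1. IRF9 (ENSG00000213928.8, chr14:24161053-24166565, plus strand, hg38) carries the DNA-binding domain of ISGF3. IRF9 had 66.4, 73.1 and 55.9 CPM with Wnt3a+SB-505124, 13, 13.8 and 18 CPM with Wnt3a and 16.2, 15.9 and 19.2 CPM with Vehicle. The Wnt3a+SB-505124 libraries were far above the other 6, which lay close together, and the log2 fold change was 2.13 against Wnt3a (SE 0.157, edgeR adjusted p = 7.75e-06) and 1.93 against Vehicle (SE 0.156, edgeR adjusted p = 1.13e-05), a 4.36-fold and a 3.8-fold rise. On the same strand IRF9 overlaps AL136295.5, which had 23 to 135 counts per library, so their counts may share reads. IRF7 amplifies type I interferon production. IRF7 had 16, 20.4 and 19.3 CPM with Wnt3a+SB-505124, 4, 3.84 and 7.94 CPM with Wnt3a and 6.89, 6.25 and 8.7 CPM with Vehicle. No Wnt3a+SB-505124 library overlapped another group, Wnt3a replicate 3 was the highest of its group, and the log2 fold change was 1.82 against Wnt3a (SE 0.278, edgeR adjusted p = 0.000451) and 1.35 against Vehicle (SE 0.274, edgeR adjusted p = 0.00243).

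The rise of STAT2, a part of ISGF3, was smaller without 1 high library. STAT2 had 118, 51.5 and 60.9 CPM with Wnt3a+SB-505124, 44.5, 54.7 and 42.4 CPM with Wnt3a and 38.7, 44.8 and 40.7 CPM with Vehicle. Wnt3a+SB-505124 replicate 1 was about as high as the other replicates of its group together, and Wnt3a replicate 2 lay above Wnt3a+SB-505124 replicate 2. The log2 fold change was 0.70 against Wnt3a (SE 0.261, edgeR adjusted p = 0.0462) and 0.89 against Vehicle (SE 0.262, edgeR adjusted p = 0.0172). Against Wnt3a the call was lost without Wnt3a+SB-505124 replicate 1, Wnt3a replicates 1, 2 or 3 or Vehicle replicates 1, 2 or 3 or with 7 other settings (log2 fold change 0.24 to 0.82, edgeR or limma adjusted p of 0.0567 to 0.514); without Wnt3a+SB-505124 replicate 1 the log2 fold change was 0.26. Against Vehicle it was lost without Vehicle replicate 1 or with scaling by library totals alone or limma-trend on log2(TPM + 1) (log2 fold change 0.55 to 0.84, edgeR or limma adjusted p of 0.0565 to 0.148), and without Wnt3a+SB-505124 replicate 1 it was 0.45 (edgeR adjusted p = 0.0192). IRF1 binds promoters of interferon-induced genes without STAT proteins. IRF1 had 7.4, 13.7 and 12 CPM with Wnt3a+SB-505124, 6.84, 5.87 and 7.81 CPM with Wnt3a and 8.49, 7.92 and 8.29 CPM with Vehicle. Its replicate 1 with the inhibitor lay within the range of Wnt3a and below Vehicle, and the log2 fold change was 0.69 against Wnt3a (SE 0.22, edgeR adjusted p = 0.0244) and 0.42 against Vehicle (SE 0.22, edgeR adjusted p = 0.136), so that only the difference from Wnt3a passed. That call was lost without Wnt3a+SB-505124 replicates 2 or 3 or Wnt3a replicates 1 or 2 or with 4 other settings (log2 fold change 0.24 to 0.69, edgeR or limma adjusted p of 0.0548 to 0.428). Against Vehicle, IRF1 passed without Wnt3a+SB-505124 replicate 1 (log2 fold change 0.65, edgeR adjusted p = 0.00763). On the opposite strand IRF1 overlaps AC116366.3, so their counts may share reads. AC116366.3 had 352 to 737 counts per library, and IRF1 had 195 to 449.

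Among the cytosolic sensors of viral RNA, IFIH1 (MDA5) rose while DDX58 (RIG-I) and DHX58 (LGP2) did not pass. IFIH1 had 18.3, 25.3 and 19.6 CPM with Wnt3a+SB-505124, 5.3, 5.47 and 8.35 CPM with Wnt3a and 7.56, 3.97 and 8.19 CPM with Vehicle. Its Wnt3a+SB-505124 libraries were all above the other 6, with a log2 fold change of 1.72 against Wnt3a (SE 0.285, edgeR adjusted p = 0.000723) and 1.68 against Vehicle (SE 0.285, edgeR adjusted p = 0.000846). On the log2(TPM + 1) scale, which understates changes of low genes and takes effective length into account, limma-trend gave 1.09 against Wnt3a and 1.10 against Vehicle. DDX58 had 11.8, 17.1 and 13.9 CPM with Wnt3a+SB-505124, 11, 10.6 and 17.2 CPM with Wnt3a and 13.4, 9.3 and 16.4 CPM with Vehicle. The 3 groups overlapped throughout, and its log2 fold change was 0.14 against Wnt3a (SE 0.252, edgeR adjusted p = 0.661) and 0.13 against Vehicle (SE 0.252, edgeR adjusted p = 0.687). DHX58 had 5.62, 5.41 and 4.12 CPM with Wnt3a+SB-505124, 3.57, 3.95 and 3.37 CPM with Wnt3a and 4.02, 4.65 and 4.76 CPM with Vehicle. Its Wnt3a+SB-505124 libraries lay above Wnt3a and overlapped Vehicle, with a log2 fold change of 0.48 against Wnt3a (SE 0.193, edgeR adjusted p = 0.063) and 0.17 against Vehicle (SE 0.192, edgeR adjusted p = 0.481). The difference of DHX58 from Wnt3a passed without Wnt3a+SB-505124 replicate 3 or with DESeq2 (log2 fold change 0.50 to 0.61, edgeR or DESeq2 adjusted p of 0.0385 to 0.042).

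The IFIT genes encode proteins that bind foreign RNA ends and lie side by side on chromosome 10 of hg38: IFIT2 at 89283694-89309276, IFIT3 at 89327894-89340971, IFIT1 at 89392546-89406486 and IFIT5 at 89414586-89421001, all on the plus strand. Of these neighbours, IFIT1 and IFIT3 rose, IFIT5 fell and IFIT2 did not pass. IFIT1 had 15.2, 24.1 and 14.1 CPM with Wnt3a+SB-505124, 2.53, 2.48 and 6.94 CPM with Wnt3a and 3.32, 3.78 and 4.73 CPM with Vehicle. All Wnt3a+SB-505124 libraries were above the other 6, and Wnt3a replicate 3 stood above the rest of its group, with a log2 fold change of 2.16 against Wnt3a (SE 0.399, edgeR adjusted p = 0.0014) and 2.17 against Vehicle (SE 0.4, edgeR adjusted p = 0.00139). IFIT3 had 39.4, 42.2 and 28 CPM with Wnt3a+SB-505124, 8.74, 9.67 and 15.7 CPM with Wnt3a and 13.2, 13.4 and 14.8 CPM with Vehicle. The separation was again complete, with a log2 fold change of 1.69 against Wnt3a (SE 0.228, edgeR adjusted p = 0.000216) and 1.40 against Vehicle (SE 0.226, edgeR adjusted p = 0.000622). IFIT5 had 15.9, 12.3 and 11.2 CPM with Wnt3a+SB-505124, 25.2, 24 and 25.3 CPM with Wnt3a and 24.1, 21.9 and 24.2 CPM with Vehicle. Here every Wnt3a+SB-505124 library was below every other library, and the log2 fold change was -0.93 against Wnt3a (SE 0.136, edgeR adjusted p = 0.000361) and -0.84 against Vehicle (SE 0.136, edgeR adjusted p = 0.000659). IFIT2 had 4.93, 7.6 and 5.08 CPM with Wnt3a+SB-505124, 1.95, 2.57 and 6.06 CPM with Wnt3a and 3.26, 2.64 and 4.4 CPM with Vehicle. Wnt3a replicate 3 lay within the Wnt3a+SB-505124 range, and the log2 fold change was 0.74 against Wnt3a (SE 0.403, edgeR adjusted p = 0.152) and 0.77 against Vehicle (SE 0.404, edgeR adjusted p = 0.137). IFIT2 passed against Wnt3a without Wnt3a replicate 3 (log2 fold change 1.38, edgeR adjusted p = 0.00648) and against Vehicle without Wnt3a replicate 3 (log2 fold change 0.78, edgeR adjusted p = 0.0402). IFIT1, IFIT2 and IFIT3 lie opposite LIPA, which had 1898 to 2808 counts per library, and the strand setting of the counting is not given in the sources used here; the IFIT genes also share sequence, so reads could be split between them.

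The IFITM proteins sit in membranes and hinder virus entry. IFITM3 was the most abundant of the 45 genes in every group, with a mean of 345 TPM (a share of all transcripts that takes their length into account) in Wnt3a+SB-505124, 321 TPM in Wnt3a and 377 TPM in Vehicle. IFITM3 had 176, 214 and 192 CPM with Wnt3a+SB-505124, 146, 133 and 148 CPM with Wnt3a and 176, 168 and 178 CPM with Vehicle. It rose over Wnt3a but not over Vehicle, with a log2 fold change of 0.45 against Wnt3a (SE 0.0949, edgeR adjusted p = 0.0031) and 0.16 against Vehicle (SE 0.0947, edgeR adjusted p = 0.188), and the call was lost with scaling by library totals alone or limma-trend on log2(TPM + 1) (log2 fold change 0.09 to 0.20, edgeR or limma adjusted p of 0.061 to 0.445). IFITM1 had 16.9, 15.6 and 11.6 CPM with Wnt3a+SB-505124, 5.9, 6.61 and 8.63 CPM with Wnt3a and 8.35, 9.81 and 11.3 CPM with Vehicle. Its Wnt3a+SB-505124 libraries were above all others, the Wnt3a libraries were lowest on average, and the log2 fold change was 1.06 against Wnt3a (SE 0.204, edgeR adjusted p = 0.00181) and 0.58 against Vehicle (SE 0.202, edgeR adjusted p = 0.0365). Against Vehicle that call was lost without Wnt3a+SB-505124 replicates 1 or 2 or Vehicle replicates 1 or 2 or with scaling by library totals alone or limma-trend on log2(TPM + 1) (log2 fold change 0.31 to 0.58, edgeR or limma adjusted p of 0.0777 to 0.165). IFITM2 and BST2 (tetherin, which holds budding virus at the cell surface) did not pass, with log2 fold changes of 0.29 against Wnt3a (SE 0.153, edgeR adjusted p = 0.139) and 0.14 against Wnt3a (SE 0.144, edgeR adjusted p = 0.449). The annotated IFITM1 and IFITM2 overlap on the same strand and the family shares sequence, so their split is uncertain.

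Of the OAS family, whose members detect double-stranded RNA and, except OASL, make the activator of RNase L, only the weakly expressed OASL passed. OASL had 2.16, 4.68 and 3.39 CPM with Wnt3a+SB-505124, 0.456, 0.424 and 1.96 CPM with Wnt3a and 0.281, 0.363 and 1.28 CPM with Vehicle. All Wnt3a+SB-505124 libraries were above the other 6, but Wnt3a replicate 3 and Vehicle replicate 3 stood well above the rest of their groups. The log2 fold change was 1.85 against Wnt3a (SE 0.696, edgeR adjusted p = 0.0481) and 2.40 against Vehicle (SE 0.719, edgeR adjusted p = 0.0183). Against Wnt3a the call was lost without Wnt3a+SB-505124 replicates 2 or 3, Wnt3a replicates 1 or 2 or Vehicle replicate 2 or with scaling by library totals alone or an effective length offset (log2 fold change 1.49 to 1.86, edgeR adjusted p of 0.0515 to 0.144), while without Wnt3a replicate 3 the log2 fold change was 2.95 (edgeR adjusted p = 0.00612). Against Vehicle it was lost without Wnt3a+SB-505124 replicate 2 or Vehicle replicates 1 or 2 (log2 fold change 2.05 to 2.12, edgeR adjusted p of 0.0596 to 0.0642). On the log2(TPM + 1) scale limma-trend gave OASL 0.87 against Wnt3a and 1.06 against Vehicle. OAS1 had 9.98, 7.18 and 4.76 CPM with Wnt3a+SB-505124, 4.81, 4.75 and 5.44 CPM with Wnt3a and 5.14, 7.27 and 6.12 CPM with Vehicle. The groups overlapped, with a log2 fold change of 0.54 against Wnt3a (SE 0.259, edgeR adjusted p = 0.105), and OAS1 passed without Wnt3a+SB-505124 replicate 3 (log2 fold change 0.78, edgeR adjusted p = 0.0215). OAS2 and OAS3 gave 0.42 against Wnt3a (SE 0.439, edgeR adjusted p = 0.448) and 0.23 against Wnt3a (SE 0.129, edgeR adjusted p = 0.165).

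MX1, a dynamin-like GTPase that blocks viral replication, rose and its neighbour MX2 did not pass. MX1 had 7.55, 8.03 and 5.21 CPM with Wnt3a+SB-505124, 2.15, 2.46 and 5.1 CPM with Wnt3a and 3.79, 2.62 and 4.33 CPM with Vehicle. No Wnt3a+SB-505124 library overlapped the other groups, and the log2 fold change was 1.10 against Wnt3a (SE 0.348, edgeR adjusted p = 0.0238) and 0.95 against Vehicle (SE 0.347, edgeR adjusted p = 0.0428). Against Wnt3a the call was lost without Wnt3a+SB-505124 replicate 2 or Wnt3a replicates 1 or 2 or with scaling by library totals alone (log2 fold change 0.86 to 0.98, edgeR adjusted p of 0.0528 to 0.0869), and against Vehicle without Wnt3a+SB-505124 replicates 1 or 2 or Vehicle replicates 1, 2 or 3 or with 3 other settings (log2 fold change 0.37 to 1.12, edgeR or limma adjusted p of 0.0549 to 0.195); on the log2(TPM + 1) scale limma-trend gave 0.60 against Wnt3a. MX2 had 61.6, 62.3 and 55 CPM with Wnt3a+SB-505124, 57.5, 49.4 and 57.3 CPM with Wnt3a and 56, 54.6 and 57.6 CPM with Vehicle. These values differed little between groups, with a log2 fold change of 0.12 against Wnt3a (SE 0.0946, edgeR adjusted p = 0.294) and 0.09 against Vehicle (SE 0.0946, edgeR adjusted p = 0.462). Per transcript length MX2 was the more abundant, with 37.3 ± 3.44 TPM with Wnt3a+SB-505124, 44.6 ± 1.59 TPM with Wnt3a and 41.3 ± 4.75 TPM with Vehicle (mean and SD, n = 3), while MX1 had 3.29 ± 0.659 TPM with Wnt3a+SB-505124, 1.88 ± 0.835 TPM with Wnt3a and 2.31 ± 0.437 TPM with Vehicle (mean and SD, n = 3).

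Among other RNA effectors, EIF2AK2 (the kinase PKR, which stops translation on double-stranded RNA) and the exonuclease gene ISG20 rose, and ADAR, which edits adenosine to inosine in double-stranded RNA, fell. EIF2AK2 had 123, 131 and 116 CPM with Wnt3a+SB-505124, 83.8, 87.8 and 101 CPM with Wnt3a and 89.5, 69.7 and 92 CPM with Vehicle. Every Wnt3a+SB-505124 library was above the other 6, and the log2 fold change was 0.44 against Wnt3a (SE 0.123, edgeR adjusted p = 0.0136) and 0.56 against Vehicle (SE 0.123, edgeR adjusted p = 0.00393). Against Wnt3a the call was lost without Wnt3a+SB-505124 replicate 2 or Wnt3a replicate 1 or with scaling by library totals alone (log2 fold change 0.19 to 0.40, edgeR adjusted p of 0.0503 to 0.166). On the log2(TPM + 1) scale limma-trend gave EIF2AK2 0.69 against Wnt3a and 0.95 against Vehicle, and scaling by library totals alone gave 0.33 against Vehicle. ADAR had 455, 492 and 462 CPM with Wnt3a+SB-505124, 581, 580 and 651 CPM with Wnt3a and 559, 553 and 609 CPM with Vehicle. All Wnt3a+SB-505124 libraries were below all others, with a log2 fold change of -0.36 against Wnt3a (SE 0.0862, edgeR adjusted p = 0.00585) and -0.29 against Vehicle (SE 0.0862, edgeR adjusted p = 0.0181). With library totals alone ADAR gave -0.61 against Wnt3a and -0.52 against Vehicle, and with limma-trend on log2(TPM + 1) -0.70 and -0.53; against Vehicle the call was lost without Wnt3a+SB-505124 replicate 3 or Vehicle replicate 3 or with all genes of at least 1 count kept (log2 fold change -0.31 to -0.24, edgeR adjusted p of 0.0607 to 0.088). ISG20 had 2.13, 1.49 and 1.89 CPM with Wnt3a+SB-505124, 0.887, 0.714 and 1.05 CPM with Wnt3a and 1.18, 1.19 and 1.25 CPM with Vehicle. Its Wnt3a+SB-505124 libraries were all above the others, the difference from Vehicle did not pass, and the log2 fold change was 1.05 against Wnt3a (SE 0.28, edgeR adjusted p = 0.0104) and 0.60 against Vehicle (SE 0.277, edgeR adjusted p = 0.097). Against Wnt3a the ISG20 call was lost with all genes of at least 1 count kept or limma-trend on log2(TPM + 1) (log2 fold change 0.48 to 1.02, edgeR or limma adjusted p of 0.0548 to 0.0812). RSAD2 (viperin) had 4.29, 9.7 and 5.69 CPM with Wnt3a+SB-505124, 5.02, 4.73 and 6.08 CPM with Wnt3a and 5.37, 3.59 and 5.5 CPM with Vehicle; it overlapped between groups, with a log2 fold change of 0.32 against Wnt3a (SE 0.299, edgeR adjusted p = 0.4).

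ISG15 is a ubiquitin-like protein that is joined to other proteins after interferon treatment, with UBE2L6 as its conjugating enzyme and USP18 as the protease that removes it and that also restrains the receptor at IFNAR2. ISG15 had 42.9, 64.3 and 50.4 CPM with Wnt3a+SB-505124, 25.4, 26.6 and 31.7 CPM with Wnt3a and 35, 39.1 and 39.4 CPM with Vehicle. The Wnt3a+SB-505124 libraries were highest and the Wnt3a libraries lowest, without overlap, and the log2 fold change was 0.91 against Wnt3a (SE 0.152, edgeR adjusted p = 0.000755) and 0.47 against Vehicle (SE 0.151, edgeR adjusted p = 0.0244). Against Vehicle the call was lost without Wnt3a+SB-505124 replicate 2 or Vehicle replicates 1 or 3 or with scaling by library totals alone or limma-trend on log2(TPM + 1) (log2 fold change 0.18 to 0.51, edgeR or limma adjusted p of 0.0504 to 0.329); against Wnt3a limma-trend on log2(TPM + 1) gave 0.54. USP18 had 30.9, 34.3 and 30 CPM with Wnt3a+SB-505124, 17.7, 18.3 and 18.3 CPM with Wnt3a and 20.8, 25.3 and 22.3 CPM with Vehicle. The same order of groups was seen for USP18, with a log2 fold change of 0.81 against Wnt3a (SE 0.109, edgeR adjusted p = 0.000215) and 0.48 against Vehicle (SE 0.109, edgeR adjusted p = 0.00463), and the call against Vehicle was lost with scaling by library totals alone or limma-trend on log2(TPM + 1) (log2 fold change 0.19 to 0.25, edgeR or limma adjusted p of 0.0899 to 0.157); against Wnt3a limma-trend on log2(TPM + 1) gave 0.43. UBE2L6 had 9.41, 4.29 and 3.9 CPM with Wnt3a+SB-505124, 4.28, 3.55 and 2.73 CPM with Wnt3a and 2.81, 5.23 and 3.33 CPM with Vehicle; replicate 1 with the inhibitor stood alone, and the log2 fold change was 0.73 against Wnt3a (SE 0.372, edgeR adjusted p = 0.125).

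Of the ubiquitin ligases, TRIM21, the cytosolic antibody receptor, rose in both comparisons with the inhibitor. TRIM21 had 26.3, 22.7 and 19.7 CPM with Wnt3a+SB-505124, 11.4, 10 and 11.7 CPM with Wnt3a and 10.5, 13 and 11.5 CPM with Vehicle. All Wnt3a+SB-505124 libraries were above the other 6, with a log2 fold change of 1.05 against Wnt3a (SE 0.145, edgeR adjusted p = 0.000242) and 0.97 against Vehicle (SE 0.145, edgeR adjusted p = 0.000385); limma-trend on log2(TPM + 1) gave 0.67 and 0.63. HERC6, a HECT-type ligase, was low and uneven. HERC6 had 2.96, 1.46 and 0.895 CPM with Wnt3a+SB-505124, 0.684, 0.759 and 1.23 CPM with Wnt3a and 0.393, 0.557 and 0.947 CPM with Vehicle. Replicate 1 with the inhibitor was the highest, replicate 3 overlapped the other groups, and the log2 fold change was 0.98 against Wnt3a (SE 0.494, edgeR adjusted p = 0.123) and 1.47 against Vehicle (SE 0.506, edgeR adjusted p = 0.0339). That call against Vehicle was lost without Wnt3a+SB-505124 replicates 1 or 2 or Vehicle replicates 1 or 2 or with 5 other settings (log2 fold change 0.70 to 1.60, edgeR or limma adjusted p of 0.0501 to 0.252). TRIM25, which modifies RIG-I, gave 0.00 against Wnt3a (SE 0.167, edgeR adjusted p = 0.992). Shared reads could also affect some of these counts: on the opposite strand EIF2AK2 overlaps GPATCH11, RSAD2 overlaps CMPK2 and TRIM25 overlaps DGKE, and USP18 has a closely related copy, USP41. TRIM25 also overlaps C17orf67 on the same strand, which had 36 to 204 counts per library.

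None of the PARP genes or DTX3L passed in the main comparison. PARP9 and DTX3L, partners in ADP-ribosylation, overlap head to head on chromosome 3, so their counts may share reads. DTX3L had 37.5, 41.2 and 35.8 CPM with Wnt3a+SB-505124, 25.9, 28 and 35.4 CPM with Wnt3a and 33.1, 26.3 and 35.4 CPM with Vehicle; its Wnt3a+SB-505124 libraries lay above all others, and it gave 0.36 against Wnt3a (SE 0.148, edgeR adjusted p = 0.067). PARP9 had 32.1, 34.6 and 30.1 CPM with Wnt3a+SB-505124, 23.8, 22.7 and 31.1 CPM with Wnt3a and 29.9, 20.7 and 27.5 CPM with Vehicle; Wnt3a replicate 3 lay within the Wnt3a+SB-505124 range, and PARP9 gave 0.32 against Wnt3a (SE 0.163, edgeR adjusted p = 0.128). Without Wnt3a replicate 3 both passed: PARP9 gave 0.48 (edgeR adjusted p = 0.0377) and DTX3L 0.51 (edgeR adjusted p = 0.0188); DTX3L also passed without Vehicle replicate 2, with 0.36 (edgeR adjusted p = 0.0436). PARP14 had 52.9, 56.6 and 53.6 CPM with Wnt3a+SB-505124, 57.3, 68.9 and 62.4 CPM with Wnt3a and 53.4, 51.9 and 55.7 CPM with Vehicle. Its Wnt3a libraries were above all others, and its log2 fold change of -0.21 against Wnt3a (SE 0.0921, edgeR adjusted p = 0.0818) passed with scaling by library totals alone or a filter of at least 1 CPM in 3 libraries (log2 fold change -0.46 to -0.25, edgeR adjusted p of 0.00264 to 0.0342). PARP12 had 10.1, 14.6 and 11.7 CPM with Wnt3a+SB-505124, 11, 9 and 13.5 CPM with Wnt3a and 17.8, 10.7 and 18.2 CPM with Vehicle, with overlap between groups. It gave 0.12 against Wnt3a (SE 0.236, edgeR adjusted p = 0.695) and -0.36 against Vehicle (SE 0.235, edgeR adjusted p = 0.226), and passed against Vehicle without Vehicle replicate 2 or with scaling by library totals alone (log2 fold change -0.59 to -0.57, edgeR adjusted p of 0.045 to 0.0486).

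Of 8 further induced genes, SP110, a nuclear body protein, rose and XAF1, a binding partner of the apoptosis inhibitor XIAP, fell. SP110 had 40.9, 46.5 and 43.2 CPM with Wnt3a+SB-505124, 13.3, 13.3 and 22.5 CPM with Wnt3a and 25.2, 16.1 and 24 CPM with Vehicle. The Wnt3a+SB-505124 libraries were all above the other 6, and the log2 fold change was 1.41 against Wnt3a (SE 0.229, edgeR adjusted p = 0.000639) and 1.0 against Vehicle (SE 0.226, edgeR adjusted p = 0.00447). XAF1 rested on few reads, with 3 counts over the Wnt3a+SB-505124 libraries, 62 over Wnt3a and 83 over Vehicle. XAF1 had 0, 0.0304 and 0.0639 CPM with Wnt3a+SB-505124, 0.608, 0.67 and 0.182 CPM with Wnt3a and 0.141, 1.53 and 0.384 CPM with Vehicle. Vehicle replicate 2 held most of the Vehicle counts, and Vehicle replicate 1 and Wnt3a replicate 3 were low as well. The ratio of its scaled counts was 0.0685 against Wnt3a (95% interval 0.0138 to 0.21) and 0.0463 against Vehicle (0.00936 to 0.14), intervals that cover counting error only. The edgeR adjusted p was 0.02 against Wnt3a and 0.0105 against Vehicle; the call against Wnt3a was lost without Wnt3a+SB-505124 replicates 1 or 2 or Wnt3a replicate 2 or with an effective length offset (log2 fold change -3.70 to -2.31, edgeR adjusted p of 0.0537 to 0.133). IFI6 had 13.1, 25.7 and 18.6 CPM with Wnt3a+SB-505124, 6.54, 7.81 and 19.8 CPM with Wnt3a and 15.1, 11.5 and 21.5 CPM with Vehicle. Its Wnt3a replicate 3 was far above replicates 1 and 2, and its log2 fold change of 0.75 against Wnt3a (SE 0.416, edgeR adjusted p = 0.16) passed without Wnt3a replicate 3 or with all genes of at least 1 count kept (log2 fold change 0.72 to 1.42, edgeR adjusted p of 0.00649 to 0.0299). IFI27, IFI35, IFI44, IFI44L and SAMD9 did not pass, with log2 fold changes between -0.32 and 1.01; IFI27, IFI44 and IFI44L had means under 2 CPM in each group. IFI35 fell against Vehicle with scaling by library totals alone or limma-trend on log2(TPM + 1) (log2 fold change -0.59 to -0.56, edgeR or limma adjusted p of 0.00305 to 0.0139), against -0.33 in the main setting (edgeR adjusted p = 0.122).

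**Figure D2:**
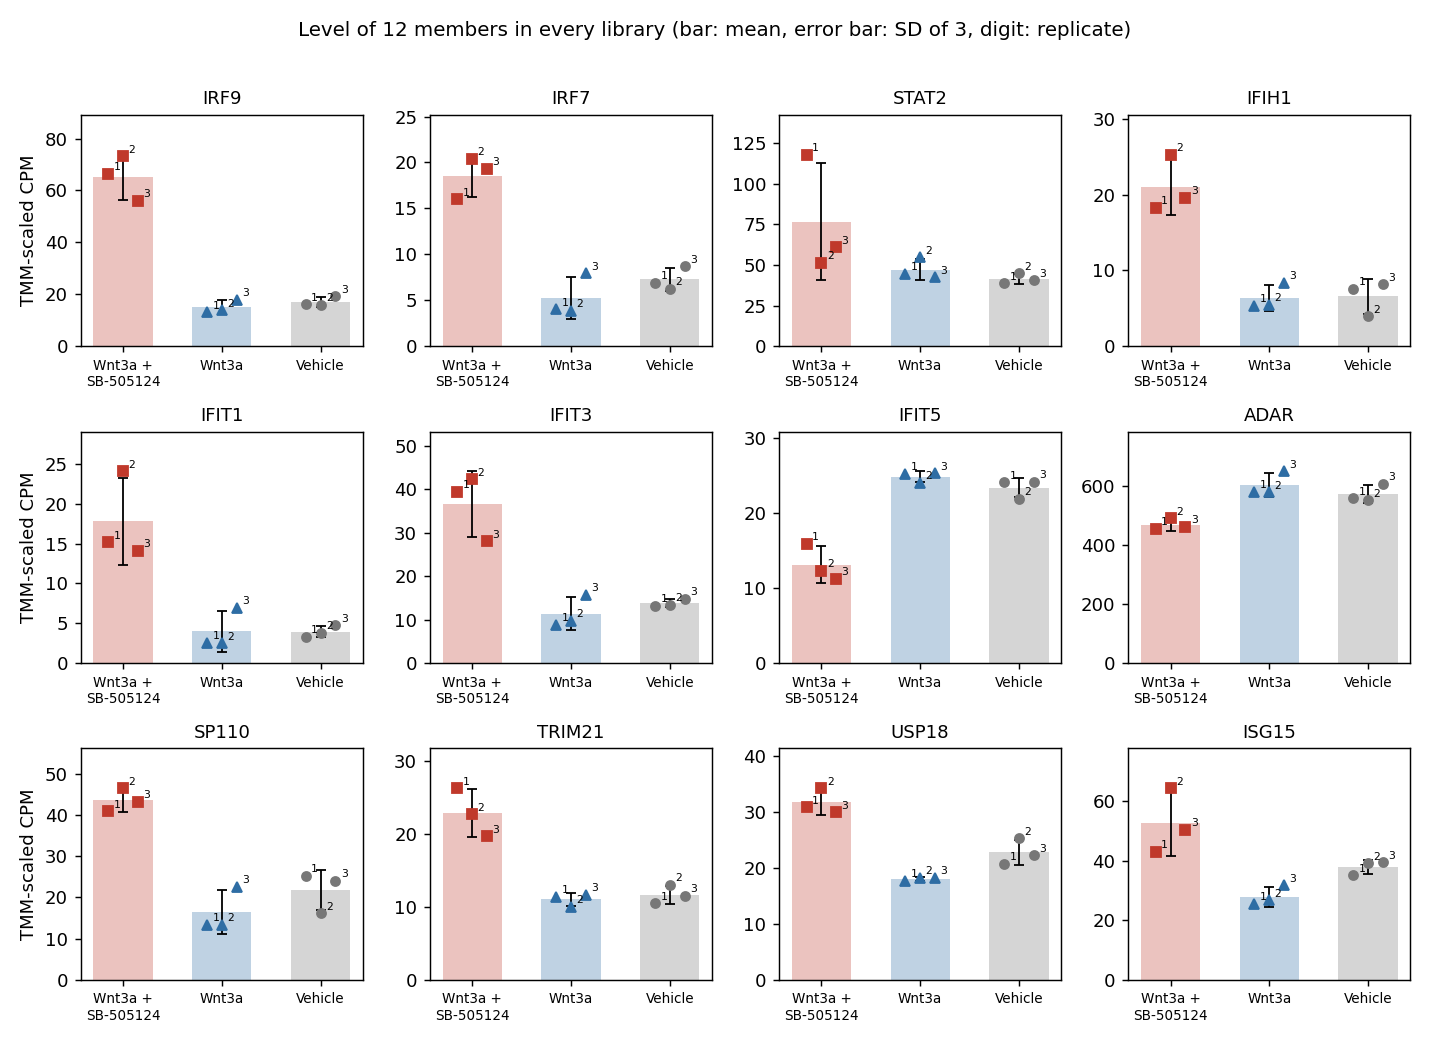
TMM-scaled CPM (y axis, from 0) of 12 of the genes in each of the 9 libraries, with the group mean as a bar, its SD over 3 libraries as an error bar and the replicate number beside each point. IRF9, IRF7, IFIH1, IFIT1, IFIT3, SP110, TRIM21, USP18 and ISG15 are higher in every Wnt3a+SB-505124 library than in any other, IFIT5 and ADAR are lower in every one, and STAT2 has 1 high library at 118 CPM.

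The comparison of Wnt3a+SB-505124 with Vehicle asks what both agents did together; it shares libraries with the others and is not independent of them. Of the 45 genes, 15 rose and 4 fell, and 26 did not pass. This is 42.2% called, against 49.7% of all genes, with 33.3% higher against 25% and 8.89% lower against 24.8%. The median log2 fold change was 0.42 over the 45 genes and -0.04 over all genes. IRF1, IFITM3 and ISG20 passed against Wnt3a only, and HERC6 against Vehicle only. Wnt3a and Vehicle themselves did not differ past the threshold for any of these genes. In 10 of the 19 genes the call held in every alternative that tested them (16 for XAF1, 19 for the others): IRF9, IRF7, IFIH1, IFIT1, IFIT3, EIF2AK2, TRIM21 and SP110, higher, and IFIT5 and XAF1, lower. With library totals alone, 9 rose and 6 fell among the 45, and 3061 rose and 6036 fell among all genes; the median of the 45 was then 0.19 and that of all genes -0.27. The 15 higher genes became 9 without Vehicle replicate 1 or with limma-trend on log2(TPM + 1), and the 4 lower genes became 2 without Vehicle replicate 3. Over all genes the first 2 of these settings gave 3920 and 2665 higher, and the last gave 3755 lower. The median of the 45 was 0.26 without Wnt3a+SB-505124 replicate 2. With limma-trend, which tested 40 of the 45, HERC6 and XAF1 not among them, the median was 0.03 over those. Over all genes that limma-trend tested it was -0.18.

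Wnt3a against Vehicle asks what the ligand alone did. None of the 45 genes passed, against 0.419% of all genes (0.397% higher and 0.0224% lower); limma-voom and DESeq2 called none either. At an unadjusted p under 0.05, edgeR gave 5 of the 45, against 7.62% of all genes, DESeq2 gave 7 and limma-voom 6. This count turned on single libraries: it was 11 without Wnt3a replicate 3, and 3 and 2 without Wnt3a replicates 1 and 2 in turn. The share of all genes at that unadjusted p was taken for the main edgeR fit alone. The counts from the other fits therefore have no background and cannot be read as particular to the 45. With all libraries the 5 were IFITM1, IFITM3, ISG15 and USP18, with log2 fold changes of -0.48, -0.29, -0.44 and -0.33, and PARP14, with 0.23. The median over the 45 was -0.08, over all genes 0.01, and 31 of the 45 values lay below 0. The median of the 45 was -0.25 without Wnt3a replicate 3, and -0.01 without Wnt3a replicate 1 or 2. Leaving out Vehicle replicates 1, 2 and 3 in turn gave -0.12, -0.13 and 0. Limma-trend on log2(TPM + 1) gave -0.01 over the 40 of the 45 that it tested. In 8 genes all Wnt3a libraries lay below all Vehicle libraries (background 8.19%), and in 2 all lay above (background 9.34%). For Wnt3a+SB-505124 against Wnt3a these counts were 17 above and 5 below (backgrounds 27.8% and 30.3%), and against Vehicle 18 above and 4 below (28.5% and 29.8%).

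Within groups, the genes tended to be high in the same library. Wnt3a replicate 3 was above its own group mean in 38 of the 45 genes, against 9 for replicate 1 and 8 for replicate 2, and Vehicle replicate 3 was above its mean in 40, against 17 and 13. In the Wnt3a+SB-505124 group, replicate 2 was above the mean in 35, replicate 1 in 18 and replicate 3 in 10. Over all genes the share above the group mean lay between 48.9% and 53.3% in each library. Scaling keeps that share near the middle in any library, so it cannot show whether the pattern was particular to the 45 genes. On the second principal component of all genes, Wnt3a replicate 3 (-24.9) also lay apart from replicates 1 and 2 (30.7 and 24.2). Wnt3a+SB-505124 replicate 2 was the highest of all 9 libraries in 24 of the 45 genes, against 15.9% of all genes. The first principal component of the 45 genes held 71.3% of their variance; Wnt3a+SB-505124 libraries had scores of -4.15, -5.31 and -3.31, Wnt3a libraries 3.7, 3.77 and -0.349, and Vehicle libraries 1.84, 3.4 and 0.414. No group overlapped the Wnt3a+SB-505124 scores, and Wnt3a replicate 3 was nearest to them. The first principal component of all genes, with 56.5% of their variance, showed the same. Its scores were -81.6, -98.1 and -86.4 for Wnt3a+SB-505124, 46.8, 61.3 and 29.4 for Wnt3a, and 36.1, 56.1 and 36.3 for Vehicle. The separation was thus not particular to the 45 genes.

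**Figure D3:**
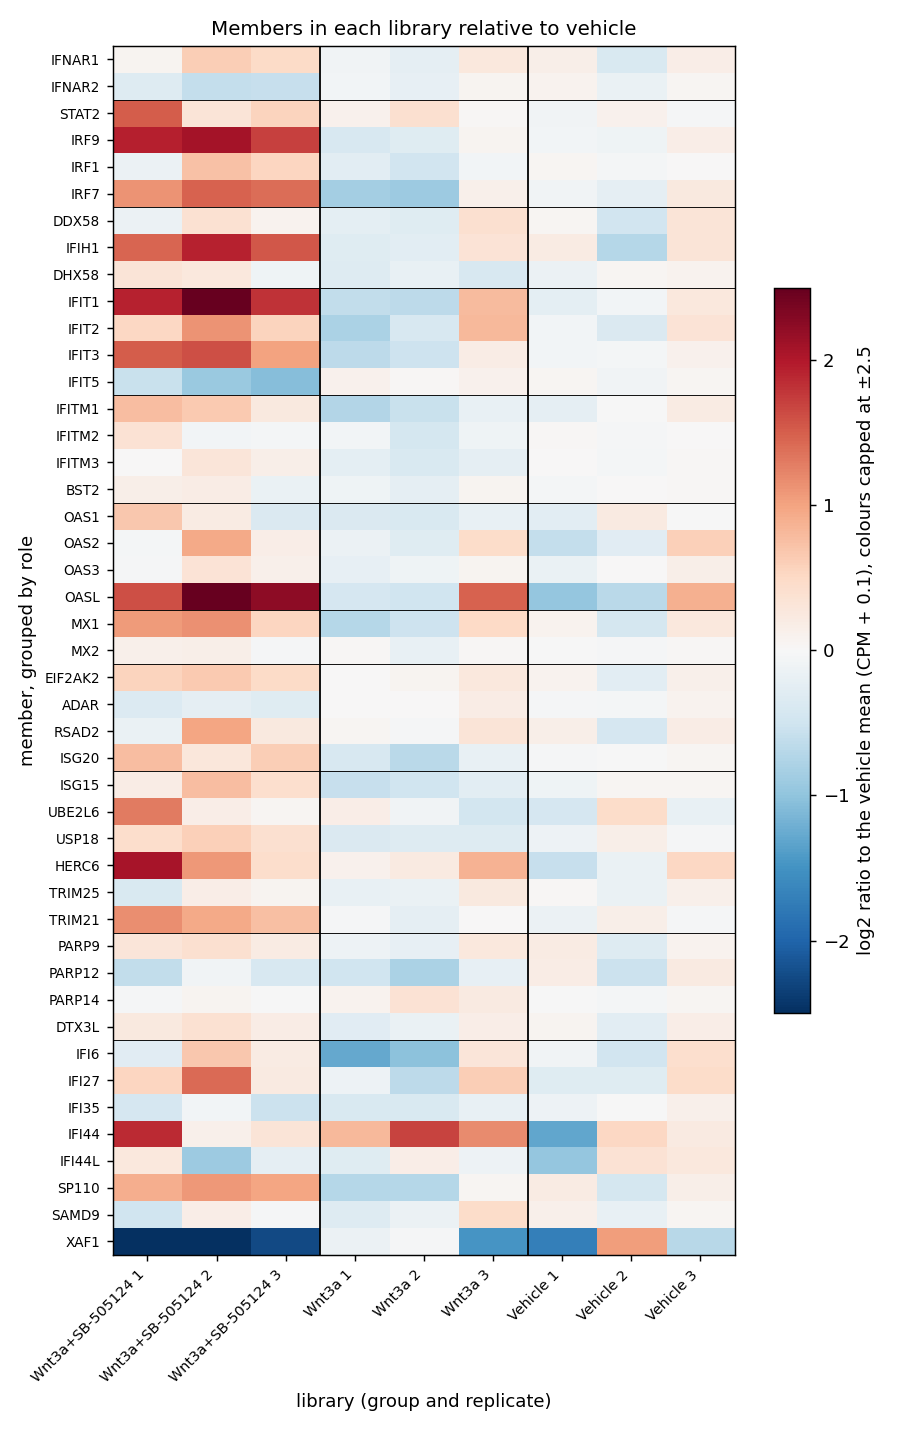
Each row is 1 of the 45 genes, grouped by role, each column 1 library, and the colour is the log2 ratio of its CPM to the Vehicle mean after adding 0.1 CPM, with colours capped at 2.5 in either direction. The Wnt3a+SB-505124 columns are red for IRF9, IRF7, IFIH1, IFIT1 and IFIT3 and blue for IFIT5, while Wnt3a replicate 3 is redder than replicates 1 and 2.

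A few genes made up most of the summed level. In Vehicle, IFITM3 made up 36.8% of the summed TPM of the 45, followed by ADAR with 134 TPM, ISG15 with 82.3 TPM, IFITM2 with 46.6 TPM and MX2 with 41.3 TPM. In Wnt3a+SB-505124 the order was IFITM3, ISG15, ADAR and IRF9, with 345, 94.8, 92.5 and 81.5 TPM, and ISG15, ADAR and IRF9 were close together. The number at 10 TPM or more was 21 in Wnt3a+SB-505124, 21 in Wnt3a and 22 in Vehicle, and 5 in Wnt3a+SB-505124, 6 in Wnt3a and 7 in Vehicle were under 1 TPM. The median was 9.3 TPM in Wnt3a+SB-505124, 8.67 TPM in Wnt3a and 9.46 TPM in Vehicle. The sum over the 45 was 1045, 1176 and 1041 TPM in the Wnt3a+SB-505124 libraries, 894.5, 929.3 and 1038 TPM in Wnt3a, and 1009, 966.8 and 1095 TPM in Vehicle. The sums of Wnt3a+SB-505124 overlapped those of Vehicle and lay just above those of Wnt3a.

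RSEM also gives each gene an effective length, the mean over its transcripts of the length in which a fragment can start, weighted by their estimated share. It falls when shorter transcripts take a larger share. In Wnt3a+SB-505124 against Wnt3a, 5 of the 45 genes were shorter in every library (background 12.9%) and 2 longer (background 4.62%). EIF2AK2 had an effective length of 5089, 4673 and 5093 bases with Wnt3a+SB-505124, 7571, 7942 and 7447 bases with Wnt3a and 8568, 8263 and 7428 bases with Vehicle. Every Wnt3a+SB-505124 library was far below the others, and the mean length changed by -35.3% from Wnt3a and by -38.8% from Vehicle. With the length as an offset the log2 fold change of EIF2AK2 was 1.05 against Wnt3a and 1.23 against Vehicle. PARP14 had an effective length of 6222, 6076 and 6794 bases with Wnt3a+SB-505124, 7482, 7350 and 7651 bases with Wnt3a and 7190, 7317 and 7745 bases with Vehicle. This is a mean change of -15.1% from Wnt3a, again without overlap. IFNAR2 changed by -17.9% and IFITM2 by -9.86%, while XAF1, at -70.8%, rests on few counts. The longer genes were IFIH1, by 3.07%, and IFI6, by 0.254%. Against Vehicle, 8 were shorter and 3 longer (backgrounds 12.5% and 4.42%), and for Wnt3a against Vehicle 5 and 1 (3.14% and 3.57%). No test was run on these lengths, which are estimates and carry no error of their own in the tables.

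**Figure D4:**
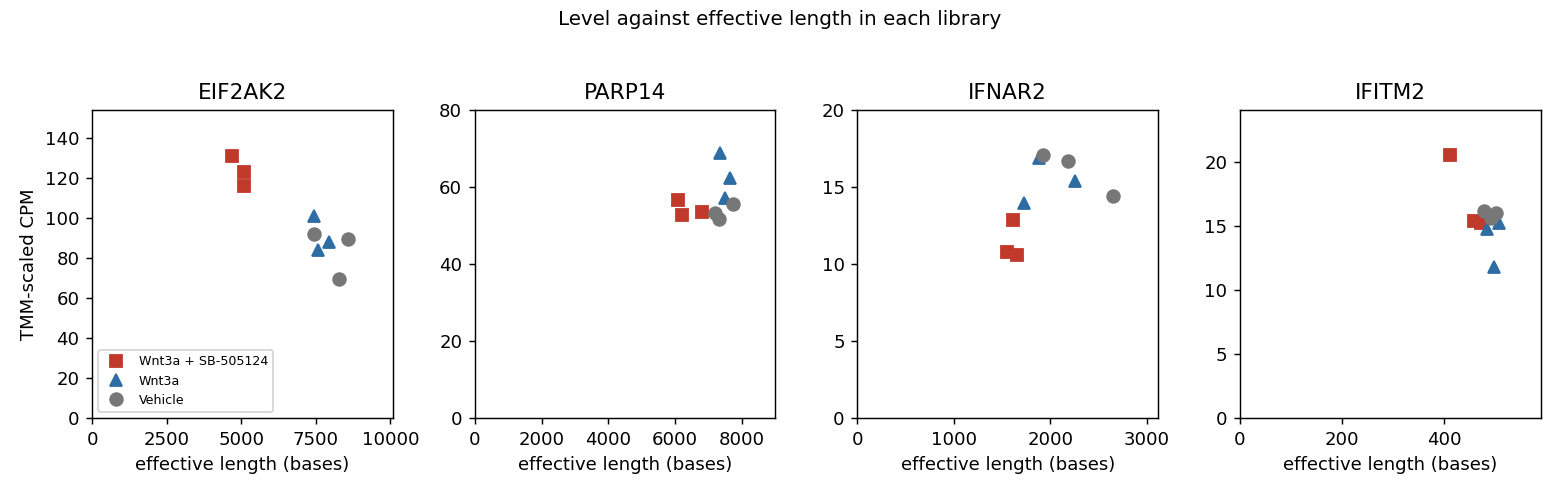
Effective length in bases (x axis, from 0) against TMM-scaled CPM (y axis, from 0) for EIF2AK2, PARP14, IFNAR2 and IFITM2, with 1 point per library; red squares are Wnt3a+SB-505124, blue triangles Wnt3a and grey circles Vehicle. The EIF2AK2 squares lie at 4673 to 5093 bases, and the other libraries at 7428 bases or more.

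Transcripts of the interferons themselves were at the limit of detection. None of 21 interferon genes passed the low-count filter, and a library had 0 to 4 counts over all of them. IFNB1 had 4 counts over the 3 Wnt3a+SB-505124 libraries and 0 in the other 6. IFNW1 had 1 count in Wnt3a+SB-505124, 3 in Wnt3a and 1 in Vehicle, and a count of 0 allows up to 3 counts, or 0.067 to 0.114 CPM in a library. No test was run on these counts.

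Of 11 other receptor and JAK-STAT genes tested, 6 rose in Wnt3a+SB-505124 against Wnt3a, none fell, and their median log2 fold change was 0.58. They included the receptor chain IL10RB (log2 fold change 0.90, edgeR adjusted p = 4.8e-05), STAT3 (log2 fold change 1.45, edgeR adjusted p = 0.000228) and STAT5A (log2 fold change 1.58, edgeR adjusted p = 0.00126). Of 12 negative regulators, 5 rose and 3 fell; PIAS1 and PTPN2 gave 0.81 and 0.77, and PTPN1 gave -0.83. Of 12 adaptors, kinases and factors that induce interferon, 5 rose and 4 fell. The endosomal RNA sensor TLR3 (log2 fold change 1.98, edgeR adjusted p = 3.53e-05) rose, and MAVS, the adaptor that IFIH1 and DDX58 signal through, fell (log2 fold change -1.20, edgeR adjusted p = 2.5e-05). IKBKE and TRAF3 also fell (-1.09 and -1.10), and TMEM173 (STING) and IFI16 rose (0.73 and 1.17). Of 9 genes that clear nucleic acids, 1 rose and 3 fell, and of 32 further type I interferon-induced genes 12 rose and 5 fell, with a median of 0.32; SHISA5 and PML rose (1.07 and 1.51) and TRIM14 and RNF213 fell (-1.47 and -0.78). Among all genes 50.4% were called in Wnt3a+SB-505124 against Wnt3a, with 24.5% higher and 25.9% lower. Whether any of these lists, or the interferon-gamma list below, differed from those shares was not tested. None of these genes passed in Wnt3a against Vehicle, where 0.419% of all genes were called.

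Of 10 genes tested that respond to interferon-gamma, 3 rose, 1 fell and 6 did not pass in Wnt3a+SB-505124 against Wnt3a. Their median log2 fold change was 0.21. The guanylate-binding protein genes GBP1 and GBP2 gave log2 fold changes of 2.11 (edgeR adjusted p = 5.67e-06) and 2.63 (edgeR adjusted p = 1.67e-05), and ICAM1 gave 1.59 (edgeR adjusted p = 0.00486). SOCS1, which blocks JAK kinases, fell (log2 fold change -1.44, edgeR adjusted p = 0.00656). Summed over the 15 genes of this list, 3 of which had no count in Wnt3a+SB-505124, the level was 151.95 to 177 TPM in Wnt3a+SB-505124, 83.64 to 99.39 TPM in Wnt3a and 83.16 to 92.61 TPM in Vehicle. The higher sum came from GBP1 and GBP2 and does not describe the list as a whole. Their means were 64.4 and 44.1 TPM in Wnt3a+SB-505124, 19.3 and 8.81 TPM in Wnt3a, and 14.1 and 7.64 TPM in Vehicle.

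Among markers of other cell types, those of leukocytes, endothelium and epithelium were low, and those of fibroblasts were not. Of 10 leukocyte markers 2 passed the filter; their summed level was 4.63 to 8.38 TPM in Wnt3a+SB-505124, 1.93 to 4.08 TPM in Wnt3a and 2.19 to 3.66 TPM in Vehicle. CD68, also a lysosomal gene of other cells, rose (log2 fold change 2.44, edgeR adjusted p = 0.000788), PTPRC had a mean of 0.0167 TPM in Wnt3a+SB-505124 and 0.0867 TPM in Wnt3a, and CD3E had no count. Of 5 plasmacytoid dendritic markers CLEC4C had no count, LILRA4 and GZMB had 2 counts each over all libraries, and IL3RA and TCF4 passed the filter but not the test. The list summed to 25.53 to 29.2 TPM in Wnt3a+SB-505124, 33.3 to 42.87 TPM in Wnt3a and 26.31 to 38.11 TPM in Vehicle, nearly all of it from TCF4, a transcription factor that many other cell types express (means of 26.6, 38.3 and 30.4 TPM in the same order). Of 6 endothelial markers 2 were tested and of 6 epithelial markers 3; none passed in Wnt3a+SB-505124 against Wnt3a, and KRT18, an epithelial keratin, was lower in Wnt3a+SB-505124 than in Vehicle (log2 fold change -0.91, edgeR adjusted p = 0.0294). Their sums were 0.97 to 1.06 and 1.26 to 1.47 TPM in Wnt3a+SB-505124, 1.53 to 1.87 and 1.89 to 2.7 TPM in Wnt3a, and 1.59 to 2.28 and 1.86 to 2.22 TPM in Vehicle. Fibroblast markers, which include collagen genes that TGF-beta controls, summed to 282.06 to 297.94 TPM in Wnt3a+SB-505124, 467.99 to 722.18 TPM in Wnt3a and 385.09 to 591.76 TPM in Vehicle. In Wnt3a+SB-505124 against Wnt3a 4 of the 8 fell and 1 rose, where 25.9% of all genes fell and 24.5% rose. The part of CD68, of TCF4, of KRT18, of the fibroblast markers and of the Ewing sarcoma markers in the differences described was not tested.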

How the data were processed

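Per the submitters' processing notes, reads were handled with CASAVA 1.8.2, Trimmomatic 0.36, STAR 2.5.2a and RSEM 1.2.31 on hg38; the notes give no roles or order, and neither annotation nor strand setting is stated. The library kit keeps strand, per the labels' protocols. The deposited tables hold, per gene and library, RSEM's expected counts (estimated counts that need not be whole), TPM (a share of all transcripts, corrected for length) and effective length, per the file headers. Of 58278 rows, 45 repeated a gene ID and were added to it, leaving 58233. The 45 genes and the companion lists were chosen with earlier results of these data known.

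Expected counts were rounded and fitted with edgeR 4.0.16 (R 4.3.3): TMM, filterByExpr, 1 quasi-likelihood fit of 9 libraries in 3 groups (6 residual degrees of freedom), two-sided F tests and Benjamini-Hochberg adjustment over 17880 genes. SE is the log2 fold change over the square root of F. The common biological coefficient of variation was 21.5%. Library totals were 28844348 to 42976799 counts, and replicates differed by more than counting noise. Alternatives were other scalings, filters, tools (limma 3.58.1, DESeq2 1.42.0), a length offset, a replicate block, a threshold of 0.01 and each library left out. Gene positions come from GENCODE, also hg38. Values per library are given for genes that passed and had a group mean of at least 1 CPM, for receptors and transcription factors, and for genes whose call turned on 1 library; RSAD2, UBE2L6, DDX58 and MX2 were added after their values were seen. Companion genes that passed are named by smallest adjusted p, up to 6 a list, and markers as checks; some companion and check genes are not reported here and are left out of the counts of their lists. The fits were tested on simulated data.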

Additional observations from a re-analysis of the deposited data

How the results depend on the processing

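Among single genes of the 45, no value past the threshold changed sign under any alternative in any of the 3 comparisons; 35 values in Wnt3a+SB-505124 against Wnt3a, 80 in Wnt3a against Vehicle and 37 in Wnt3a+SB-505124 against Vehicle changed sign without having passed. Of 891 values per comparison, 58, 0 and 52 lost a call and 13, 0 and 7 gained one. At an adjusted p of 0.01, 13 of the 45 passed in Wnt3a+SB-505124 against Wnt3a in place of 21, and 10 against Vehicle in place of 19. Of all 17880 genes, 6298 and 6277 passed at 0.01 in these comparisons, in place of 9013 and 8895. Limma-trend on log2(TPM + 1) gave 12 against Vehicle, of the 40 that it tested, and 7555 of the 15120 genes that it tested in all. Leaving out 1 library at a time gave 15 to 24 against Wnt3a, 13 to 20 against Vehicle, and 0 in Wnt3a against Vehicle. Over all genes these ranges were 7411 to 9613, 7575 to 9262 and 20 to 140. For Wnt3a against Vehicle the 75 genes called became 259 with all genes of at least 1 count kept, 261 with DESeq2 and 30 at an adjusted p of 0.01. Without Wnt3a+SB-505124 replicate 1 they were 140, without Wnt3a replicates 1 and 2 in turn 47 and 32, and without Vehicle replicates 1, 2 and 3 in turn 26, 48 and 20. The cause of these changes was not tested. Under all other alternatives run, the total of the 45 that passed stayed within 1.5 times the main count in each comparison; the counts higher and lower taken apart moved further under some.

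The correlation of deviations from the group means between same-numbered libraries of different groups was mixed, from -0.182 to 0.416 over 9 pairs: positive for each pair of number 3, of both signs for numbers 1 and 2, and not above 0.1 in every pair. Not every library correlated best with its own number. With the replicate number as a block, 20 of the 45 passed in Wnt3a+SB-505124 against Wnt3a, 0 in Wnt3a against Vehicle and 18 in Wnt3a+SB-505124 against Vehicle, and 9166, 79 and 9039 of all genes. Limits are the 3 libraries a group, genes of few counts such as XAF1, the missing group with SB-505124 alone, and the overlap of genes on the opposite or the same strand.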

Other observations

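Genes that clear nucleic acids, and so limit the ligands of the interferon-inducing sensors, were split in Wnt3a+SB-505124 against Wnt3a. DNASE2, the lysosomal nuclease, rose (log2 fold change 0.46, edgeR adjusted p = 0.00316), and SAMHD1, which degrades deoxynucleotides, fell (log2 fold change -0.48, edgeR adjusted p = 0.031), a call lost without Wnt3a+SB-505124 replicates 1 or 3 or Wnt3a replicate 3 (edgeR adjusted p up to 0.124). RNASEH2C, a subunit of ribonuclease H2, fell (log2 fold change -0.47, edgeR adjusted p = 0.0307), a call lost without Wnt3a+SB-505124 replicates 1 or 3 or Wnt3a replicates 1 or 2 (edgeR adjusted p up to 0.107). DNASE1 fell as well (log2 fold change -1.24, edgeR adjusted p = 0.00436). Among the further interferon-induced genes, DDX60, a helicase that aids RNA sensing, rose (log2 fold change 0.96, edgeR adjusted p = 0.0018), and so did CMTR1, a cap methyltransferase (log2 fold change 0.54, edgeR adjusted p = 0.0018).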
